A study of Rattus norvegicus with 8 samples.

Results

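The comparison covers paired against unpaired fear training in the basolateral amygdala of the rat, over all 8 arrays of the study. The members are the 4 arrays from rats given paired training and the 4 arrays from rats given unpaired training, taken from the sample labels. In paired training each of 2 tones (75 dB, 20 s) ended together with a footshock (1.5 mA, 1 s), so that the tone could become a signal for the shock. In unpaired training the same 2 shocks and 2 tones were given, with the shock ahead of the tone. Control rats had been operated on and not stimulated. Epileptogenic rats had been stimulated in the amygdala, had answered with status epilepticus, and had shown no spontaneous seizures. All rats had 5 habituation sessions of 10 min and were trained on day 8, and both nuclei, the lateral and the basal, were cut out by laser from tissue taken 3 h after training. Each of the 4 groups (control unpaired, control paired, epileptogenic unpaired, epileptogenic paired) has 2 arrays, lettered A and B, and each array holds amplified RNA pooled from 2 rats, which gives 16 rats in all. The difference from training was therefore read in 4 matched pairs of arrays with the same surgery and letter. Pooling hides the spread between single rats, there is 1 sampling time and no untrained group, and strain, sex and age are not given in the sources used here.

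Fear conditioning is the learning of a link between a neutral tone and an aversive shock, and the nuclei sampled here are where both inputs meet in the amygdala. Coincident activity opens NMDA receptors, calcium entry activates kinases such as CaMKII and the factor CREB, and immediate early genes such as Fos, Egr1, Arc and Nr4a1 are transcribed within minutes, often back near baseline some hours later. Effector genes, AMPA receptor transport, GABAergic interneurons and glia are all known to take part in keeping the memory. Both groups here were handled, heard tones and were shocked, so the contrast concerns the pairing of tone and shock and not the exposure itself.

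No probe set differed between paired and unpaired training past the threshold of 0.05. In a limma fit with training, surgery group and letter as terms, 0 of 18625 tested probe sets passed after Benjamini-Hochberg adjustment (0% called), and the smallest adjusted p was 0.999. At an unadjusted p under 0.05, 698 probe sets lay below the threshold (3.75%). That was fewer than in any other interval of p of the same width, which held 889 to 1005. Of all tested probe sets, 1.23% (229) were below the threshold and higher after paired training, and 2.52% (469) were below it and lower. This split turned with the scaling of the arrays: 575 were higher and 223 lower with each array centred on its median, and 332 and 341 with quantile normalization. In the same fit 2942 probe sets passed for epileptogenic against control surgery (15.8%) and 3250 for letter B against letter A (17.4%). The median size of the log2 difference was 0.15 for training, 0.32 for surgery and 0.35 for the letter, and the median standard error (SE) was 0.21 for each. The median 95% interval of a training difference reached 0.47 log2 to each side, a factor of 1.39, and the 10th to 90th percentile of this reach was 0.30 to 0.89.

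**Figure D1:**
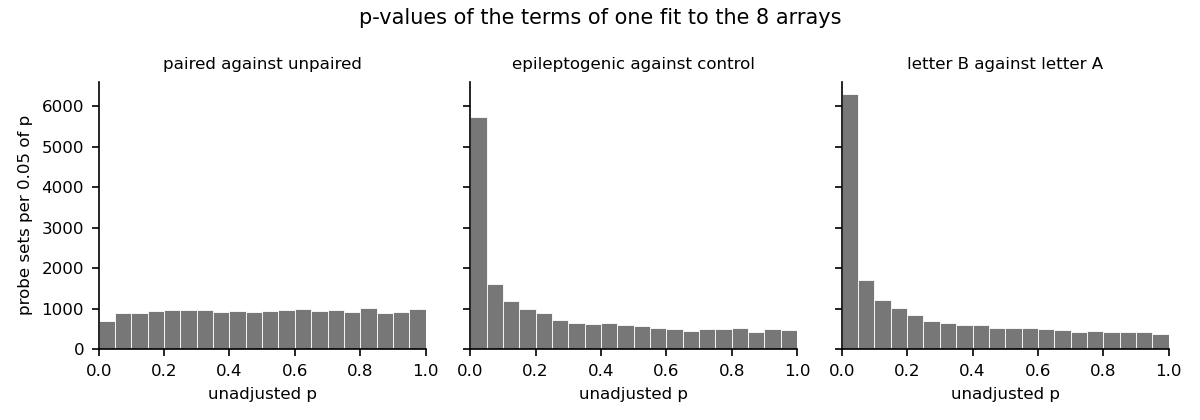
Number of tested probe sets per 0.05 of unadjusted p (vertical axis) against p (horizontal axis) for the 3 terms of one limma fit to the 8 arrays: training, surgery group and letter. The first bar holds 698 probe sets for training, 5737 for surgery and 6298 for the letter.

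Over all tested probe sets the 4 matched pairs did not rank genes alike. Pearson correlations between the differences of any pair of matched pairs ran from -0.09 to 0.05 across 18625 probe sets, which are not independent replicates. All 4 pairs were higher after paired training for 889 probe sets (4.77%) and all 4 were lower for 1341 (7.2%). That split turned as well. With median centring there were 1785 higher and 678 lower, and with quantile normalization 1160 and 1025. The median difference over all tested probe sets was -0.02 log2 as deposited and 0.07 after median centring. A gene was read by its brightest probe set, and of 10364 such genes 499 (4.81%) were higher and 735 (7.09%) lower in 4 of 4 pairs. Of these genes 54% were below 0 as deposited, 36.6% after median centring and 49.3% after quantile normalization. Median centring moves every list median upward by the same amount, and its value is printed where it changes the sign or moves the value by more than 1.5 times. In 28 genes (0.27%) all paired arrays lay above all unpaired arrays, and in 59 (0.569%) all lay below. Median signals of the arrays ran from 29.0 to 43.2, and correlations between arrays from 0.850 to 0.925. The naming rule given below chose 92 tested genes, with genes read only as tissue markers left out. Of these 92 genes, 56 had a difference more than 1.5 times smaller, or of the other sign, when 1 array was left out.

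The tissue markers were read first, with values per array always in the order control A, control B, epileptogenic A, epileptogenic B. The pan-GABAergic enzyme gene Gad1 had log2 signals of 12.13, 11.70, 11.95 and 11.62 on the paired arrays and 12.20, 11.53, 11.77 and 10.54 on the unpaired arrays. The vesicular glutamate transporter gene Slc17a7 was at 5.50, 5.13, 5.89 and 3.98 on the paired arrays and 5.48, 5.62, 4.12 and 4.33 on the unpaired arrays. Another excitatory marker, the cortical and amygdalar transcription factor gene Neurod6, lay at 7.97, 8.26, 7.04 and 6.91 on the paired arrays and 8.26, 8.86, 6.43 and 7.66 on the unpaired arrays. Drd1, the dopamine receptor gene of striatal and intercalated neurons, was at 8.35, 8.82, 8.70 and 8.49 on the paired arrays and 8.50, 9.20, 8.45 and 8.58 on the unpaired arrays, above the filter level on every array. Drd2, the other main striatal dopamine receptor gene, was at 5.33, 5.67, 7.01 and 5.75 on the paired arrays and 6.93, 6.15, 6.49 and 3.55 on the unpaired arrays, lowest on epileptogenic unpaired B. Ttr, the transthyretin gene of choroid plexus, ranged widely, at 11.75, 11.96, 8.23 and 10.99 on the paired arrays and 7.24, 12.31, 11.37 and 12.25 on the unpaired arrays. It was low on control unpaired A and epileptogenic paired A. Col1a1, a collagen gene of meninges and fibroblasts, was at 6.35, 6.61, 8.50 and 7.51 on the paired arrays and 6.48, 6.81, 7.34 and 8.93 on the unpaired arrays, highest on epileptogenic unpaired B. The part of these marker differences in the results on training was not tested. In whole tissue, fewer cells of a type and less RNA per cell cannot be told apart.

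The transcription factors of the immediate early response lay on both sides of 0. Of 35 listed genes 25 were bright enough to test, 0 passed, and 0 had 4 of 4 pairs in 1 direction, against 4.81% and 7.09% of all genes. The list's median difference was -0.031 log2, beside -0.02 over all named genes, or 0.060 and 0.07 after median centring, and its members ran from -0.51 to 0.30. Fos, the founding member of the AP-1 family, measured 6.91, 7.39, 8.40 and 8.91 on the paired arrays and 6.85, 7.25, 9.46 and 8.44 on the unpaired arrays. The groups overlapped, and the levels followed surgery, with all epileptogenic arrays above all control arrays. The Fos difference was -0.096 ± 0.24 (SE, 4 matched pairs), with pair differences of 0.056, 0.14, -1.06 and 0.48. Egr1, a zinc finger factor used as a marker of plasticity in the lateral amygdala, measured 11.45, 11.53, 11.63 and 11.18 on the paired arrays and 11.81, 11.59, 11.63 and 10.99 on the unpaired arrays. Its difference was -0.055 ± 0.14 with a 95% interval of -0.37 to 0.26, so that the interval reached no more than 0.37 log2 to either side of 0. Nr4a1, an orphan nuclear receptor induced by activity, differed by 0.0069 ± 0.34, with pairs at -0.21, -0.36, 0.84 and -0.25. Only the epileptogenic A pair of Nr4a1 was higher after paired training. The related Nr4a3 and the clock gene Per1, which had the smallest p on the list, differed by -0.17 ± 0.13 and -0.50 ± 0.31. With single arrays or matched pairs left out, Fos ran from -0.33 to 0.23, Egr1 from -0.17 to 0.08 and Nr4a1 from -0.40 to 0.30.

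The effector genes that carry activity into the synapse were spread around 0 much as all genes were. Of 37 such genes 27 were tested, and 13 lay above 0 and 14 below (16 and 11 after median centring). Of all genes 46% were above 0 (63.4% after median centring). The effector median was -0.0012, or 0.089 after median centring. Arc, which drives AMPA receptor endocytosis, measured 4.51, 4.82, 5.13 and 4.11 on the paired arrays and 5.98, 4.47, 5.27 and 4.27 on the unpaired arrays. Control unpaired A stood highest and the groups overlapped. The Arc difference of -0.36 ± 0.37 rested on the control A pair, which differed by -1.47, while the control B pair was at 0.35. Without the matched pair control A the Arc difference was 0.014. Homer1, a scaffold that links metabotropic glutamate receptors to calcium stores, differed by -0.11 ± 0.14, with pairs at -0.25, -0.15, 0.18 and -0.22. Only 3 of its 4 tested probe sets were on the same side of 0. Bdnf, the neurotrophin required for consolidation of fear memory, measured 6.49, 6.59, 6.04 and 6.46 on the paired arrays and 5.43, 6.77, 6.12 and 6.21 on the unpaired arrays. Its difference was 0.26 ± 0.24, and the control A pair (1.06) stood apart from the others, which ran from -0.18 to 0.25. Without the matched pair control A the Bdnf difference was -0.0048. Scg2, a secretogranin of dense-core vesicles, had the smallest p of the effector genes (limma, unadjusted p 0.106). It measured 10.28, 9.34, 8.97 and 9.15 on the paired arrays and 8.85, 8.91, 9.22 and 9.09 on the unpaired arrays. Its difference was 0.41 ± 0.23, and control paired A lay above all other arrays. Dusp6, a phosphatase that switches off ERK, differed by -0.24 ± 0.14, with pairs at -0.43, -0.58, -0.050 and 0.097. Of the 27 effector genes 2 had all 4 pairs higher and 0 all 4 lower, against 4.81% and 7.09% of all genes. The 2 were Nptx1 (0.17 ± 0.14), a pentraxin that clusters AMPA receptors, and Plk2 (0.14 ± 0.13), a kinase of homeostatic plasticity. Both were picked out after their values were seen.

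CREB acts through the cAMP response element (CRE), so promoters of these genes were searched for it in RefSeq sequence of build GRCr8, in the 250 bases before each start. The full element is TGACGTCA, and the short elements are TGACG and its reverse complement CGTCA. Every full element holds both short ones, so each search covers both strands. The full element was found in 466 of 27457 promoters (1.70%) and a short one in 5205 (19.0%). Among tested genes with a promoter, 263 of 8628 (3.05%) held the full element, and their median training difference was -0.01, beside -0.02 for the 8365 without it. The full element was found for 4 of 20 effector genes with a promoter sequence and for 1 of 18 transcription factors. The effector genes were Scg2 (difference 0.41), Vgf (0.34), Plk2 (0.14) and Dusp1 (-0.29), and the transcription factor was Jund (-0.12). The promoters of Scg2 and Vgf, both dense-core vesicle genes with the full element, are given 5′ to 3′ on the gene's strand, with the element in capitals.
Scg2, chr9:88256867-88257116, minus strand: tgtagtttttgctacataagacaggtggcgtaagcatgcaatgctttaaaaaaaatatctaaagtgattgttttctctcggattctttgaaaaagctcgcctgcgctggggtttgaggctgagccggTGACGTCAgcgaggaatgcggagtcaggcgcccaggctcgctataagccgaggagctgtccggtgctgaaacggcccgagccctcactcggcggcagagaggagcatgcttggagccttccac
Vgf, chr12:25277021-25277270, minus strand: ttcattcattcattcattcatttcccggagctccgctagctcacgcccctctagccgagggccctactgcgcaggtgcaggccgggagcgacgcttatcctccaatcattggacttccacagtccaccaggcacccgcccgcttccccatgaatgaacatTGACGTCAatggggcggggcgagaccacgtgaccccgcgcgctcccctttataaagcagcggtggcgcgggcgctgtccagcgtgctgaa
The Vgf difference was 0.34 ± 0.36 and its pairs were at 1.53, 0.58, -0.31 and -0.42. A match is a description of letters and shows neither binding nor use.

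**Figure D2:**
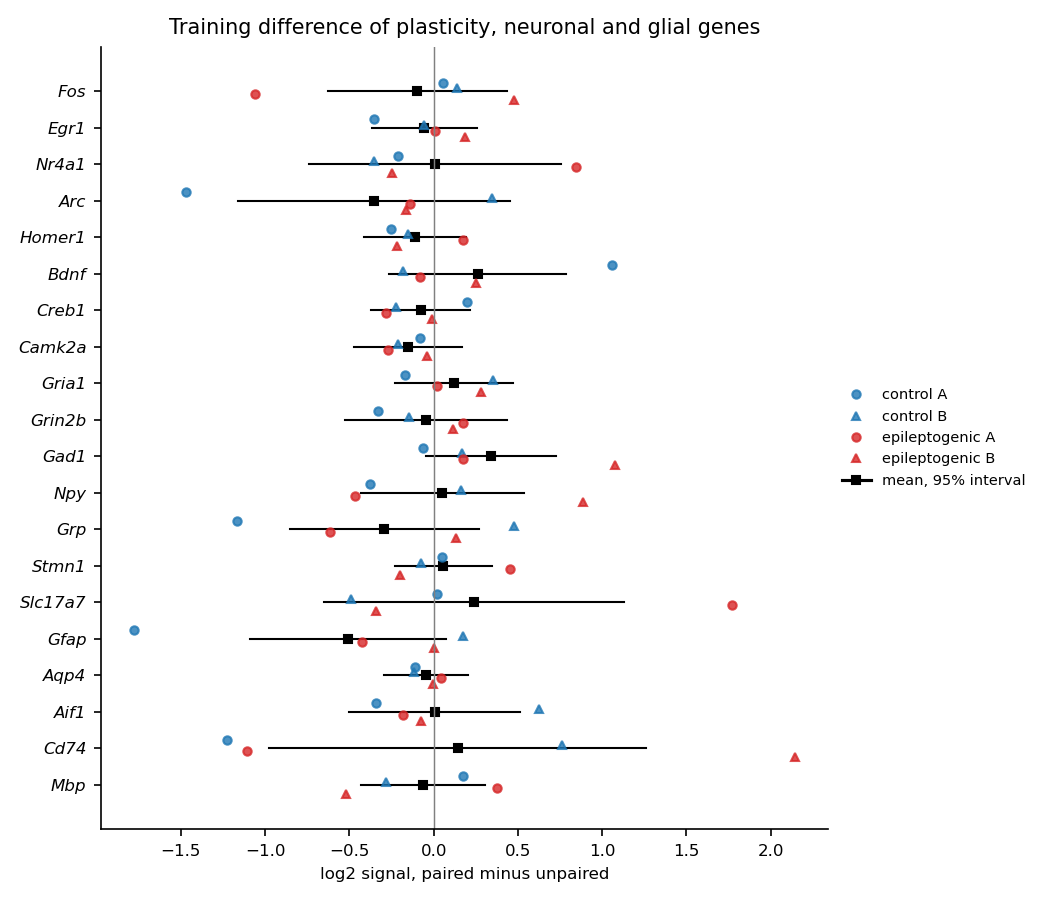
Difference in log2 signal, paired minus unpaired training, for 20 genes (rows). Coloured points are the 4 matched pairs of arrays (blue control, red epileptogenic, circles letter A, triangles letter B), black squares the mean over them with its 95% interval from limma; every interval crosses 0.

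Among ionotropic glutamate receptors the NMDA subunits lay on 1 side. All 6 tested subunit genes were below 0, with a median of -0.28, while 54% of all genes were below 0. After median centring or quantile normalization 5 of the 6 were below 0. None passed and none had an unadjusted p under 0.05. The medians of the pairs were -0.25, -0.085, -0.38 and 0.050, so the epileptogenic B pair did not share the direction, and without epileptogenic unpaired A the list median was -0.13. Grin2a, the subunit that gives NMDA receptors fast closing, measured 6.18, 7.12, 4.70 and 6.11 on the paired arrays and 6.74, 7.15, 6.08 and 5.97 on the unpaired arrays. Epileptogenic paired A was the lowest array, and the groups overlapped. Its difference was -0.46 ± 0.25, but 1 of its 2 probe sets had the opposite sign. Grin2b, the subunit of slow currents and of fear acquisition, differed by -0.048 ± 0.22, with pairs at -0.33, -0.15, 0.18 and 0.11 and 1 of its 2 probe sets on the other side of 0. Grin2c, found in astrocytes and interneurons as well as other neurons, was lower in all 4 pairs (-0.19, -0.43, -0.32 and -0.26), a difference of -0.30 ± 0.15. The 9 AMPA and kainate receptor genes had a median of 0.037 (0.13 after median centring) and 0 with 4 of 4 pairs in 1 direction. Gria1, whose subunit is driven into lateral amygdala synapses during fear learning, differed by 0.12 ± 0.16, and Gria3 by 0.15 ± 0.17. Gria3 measured 9.86, 10.47, 9.40 and 9.56 on the paired arrays and 10.03, 10.73, 8.78 and 9.15 on the unpaired arrays, and its pairs were at -0.17, -0.26, 0.62 and 0.41, both control pairs below 0 and both epileptogenic pairs above. Of the 2 Gria3 probe sets 1 had the opposite sign. The difference in the Gria3 training effect between surgery groups did not pass (limma, adjusted p 0.868). Metabotropic receptor genes Grm2 and Grm3 differed by -0.24 ± 0.32 and 0.029 ± 0.15.

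Signalling genes downstream of these receptors were spread around 0. The kinase, phosphatase and CREB list had 58 tested members with a median of 0.030 (0.12 after median centring). Of these, 36 were above 0 (47 after median centring), against 46% of all genes (63.4%), and 22 were below. Camk2a, the alpha subunit of CaMKII, was a little lower in all 4 pairs (-0.081, -0.21, -0.27 and -0.042), with a difference of -0.15 ± 0.15 and 3 of 3 probe sets on the same side. Creb1 differed by -0.078 ± 0.13, with an interval of -0.37 to 0.22. Pde1a, a calmodulin-dependent phosphodiesterase, had the largest difference on the list, 1.54 ± 0.57. It measured 5.55, 5.63, 4.23 and 5.54 on the paired arrays and 2.76, 6.02, 1.20 and 4.83 on the unpaired arrays. Both unpaired A arrays and epileptogenic paired A were dim, under the filter level of 4.35. The unpaired mean of Pde1a (3.70) also lay under it, so the gene entered the tests through its paired arrays. In the A arrays by themselves the difference was 2.91, and in the B arrays it was 0.16. Nrgn, which holds calmodulin at synapses, differed by 0.50 ± 0.25, with pairs at -0.46, 1.15, 0.96 and 0.36.

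GABA genes mostly had higher values after paired training, without passing the test. Of 15 tested genes of GABA synthesis, transport and reception 13 were above 0, against 46% of all genes, with a median of 0.15 (0.24 after median centring). The medians of the pairs were 0.20, -0.067, 0.17 and 0.32. Gad2, the synaptic form of glutamate decarboxylase, measured 6.28, 6.06, 6.04 and 6.63 on the paired arrays and 4.90, 6.09, 5.30 and 5.69 on the unpaired arrays. Its difference was 0.76 ± 0.25 (limma, unadjusted p 0.0111, adjusted p 0.999), higher in 3 of 4 pairs, with overlapping groups. Gad1, the cytosolic form of the same enzyme, differed by 0.34 ± 0.17. Its pairs were at -0.063, 0.17, 0.17 and 1.08, so the epileptogenic B pair held most of the difference, where the unpaired array had the lowest Gad1 signal of all. Gabra5, the extrasynaptic GABA-A subunit gene, differed by 0.50 ± 0.19, and its pairs were at 0.43, -0.19, 1.06 and 0.71. Gabbr2, a GABA-B receptor subunit gene, was the 1 member with all 4 pairs higher (0.16 ± 0.13, picked out after its value was seen). The 16 interneuron markers gave similar values, with 13 above 0 and a median of 0.17 (0.26 after median centring); Gad2 is on both lists. Npy, a peptide of interneurons, differed by 0.051 ± 0.22, and its pairs were at -0.38, 0.16, -0.47 and 0.89. Beside these stand the striatal and central amygdala markers, with a median of 0.16 (0.25 after median centring). Of these 20 markers 17 were above 0 (17 after median centring), against 46% of all genes (63.4%). Their pair medians were -0.36, 0.0028, 0.21 and 0.85, and their summed signal was 8109 to 11921 on the paired arrays and 4446 to 11376 on the unpaired arrays. Without epileptogenic unpaired B their median was -0.16, and their part in the GABA values was not tested.

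Among the 32 lists, peptide and channel genes held the largest counts of members that were higher at an unadjusted p under 0.05. Of 28 neuropeptide and receptor genes 6 were higher at an unadjusted p under 0.05 and 0 lower, against 1.24% and 2.61% of all genes, and 5 were higher in all pairs, against 4.81% of all genes. Of the 6 genes, 2 (Sstr4 and Tac3) had an unpaired mean under the filter level of 4.35 and entered the tests through their paired arrays, so their place in the count is no support. The median was 0.24 and pair medians were 0.033, 0.20, 0.15 and 0.54. The list median was 0.10 without epileptogenic unpaired B and 0.095 without epileptogenic paired B. Sstr4, a somatostatin receptor gene, measured 5.70, 4.91, 4.81 and 5.11 on the paired arrays and 3.94, 4.82, 3.07 and 4.37 on the unpaired arrays, with pairs at 1.76, 0.089, 1.74 and 0.74 and a difference of 1.08 ± 0.41. Npy1r, the neuropeptide Y receptor gene with anxiolytic action in the amygdala, measured 7.85, 8.52, 7.05 and 8.02 on the paired arrays and 7.76, 8.20, 6.61 and 7.30 on the unpaired arrays. Its difference was 0.39 ± 0.15. Nts and Tac3, genes of neurotensin and neurokinin B, differed by 0.48 ± 0.20 and 0.99 ± 0.43. Without epileptogenic unpaired B the Nts difference was 0.25. Both genes are also listed with striatal and central amygdala neurons. Grp, the gastrin-releasing peptide of lateral amygdala neurons, measured 6.89, 7.35, 5.87 and 6.23 on the paired arrays and 8.06, 6.88, 6.49 and 6.10 on the unpaired arrays. Its difference was -0.29 ± 0.25, negative in both A pairs and positive in both B pairs (-1.17, 0.47, -0.61 and 0.13). Of 50 ion channel genes 5 were higher at an unadjusted p under 0.05, and 6 had 4 of 4 pairs higher and 0 lower, against 4.81% and 7.09% of all genes, around a median of 0.045 (0.14 after median centring). Kcnip3, whose product tunes A-type potassium current and represses transcription, measured 6.48, 6.16, 6.91 and 4.84 on the paired arrays and 5.23, 4.36, 6.53 and 3.34 on the unpaired arrays. It was higher in all pairs (1.25, 1.80, 0.38 and 1.50), by 1.23 ± 0.42 (limma, unadjusted p 0.0131), although the groups overlapped. Kcnc1, the fast-spiking potassium channel gene of parvalbumin cells, was higher in all pairs by 0.44 ± 0.17.

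Among receptors for acetylcholine, monoamines and cannabinoids, Chrm3 and Htr1b separated the training groups in opposite directions. Chrm3, a muscarinic receptor gene, measured 5.59, 5.41, 5.78 and 5.15 on the paired arrays and 4.76, 5.10, 4.57 and 4.67 on the unpaired arrays. All paired arrays lay above all unpaired arrays, and the difference was 0.71 ± 0.28 (limma, unadjusted p 0.0292, adjusted p 0.999). Htr1b, an inhibitory serotonin autoreceptor gene, measured 4.51, 3.37, 3.43 and 4.45 on the paired arrays and 4.82, 4.53, 5.33 and 5.13 on the unpaired arrays. All paired arrays lay below all unpaired arrays, and the difference was -1.01 ± 0.43, with epileptogenic A at -1.90 and control A at -0.31. The paired mean of Htr1b (3.94) lay under the filter level, so the gene entered the tests through its unpaired arrays, and the difference was -0.65 without epileptogenic paired A. Fkbp4, a co-chaperone of the glucocorticoid receptor, was also separated, at 5.72, 5.79, 5.82 and 5.87 on the paired arrays and 6.15, 6.19, 6.37 and 6.10 on the unpaired arrays. Its difference was -0.40 ± 0.19, yet its interval (-0.82 to 0.015) crossed 0. Pclo, an organizer of the presynaptic active zone, was higher in all pairs (1.00, 0.13, 1.77 and 1.07), by 0.99 ± 0.34, and its unpaired mean (4.34) lay just under the filter level. Pak3 and Nefl, a kinase of spine actin and the light neurofilament, differed by 0.39 ± 0.18 and 0.33 ± 0.14. Without control paired A the Pak3 difference was 0.21, and 1 of its 3 probe sets had the opposite sign. Without epileptogenic paired B the Nefl difference was 0.20. Stmn1, a microtubule regulator needed for learned fear, differed by 0.057 ± 0.13 with an interval of -0.23 to 0.34. Among adhesion genes Cntnap2 was higher in all pairs by 0.32 ± 0.17, while Nrxn3 (0.37 ± 0.19) was higher in 3. Without epileptogenic unpaired A the Nrxn3 difference was 0.22.

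Astrocyte and microglial genes mostly had lower values after paired training, and here too no gene passed. Of 18 tested reactive astrocyte genes 17 were below 0, against 54% of all genes, with a median of -0.38 beside -0.02 for all genes. In limma 3 were lower at an unadjusted p under 0.05, against 2.61% of all genes. The count was 0 after median centring and 1 after quantile normalization, against 121 and 204 of all 10364 genes. The mean log2 signal of the list was 5.80, 6.36, 7.86 and 7.85 on the paired arrays and 6.72, 6.56, 7.96 and 8.06 on the unpaired arrays. Epileptogenic arrays were far above control arrays in both groups, so the training groups overlapped. Pair medians were -0.80, -0.068, -0.16 and -0.091, and the control A pair held most of the shift. The list median was -0.15 without control paired A, -0.15 without control unpaired A and -0.12 without both. Gfap, the intermediate filament of astrocytes, measured 8.02, 9.36, 11.72 and 11.91 on the paired arrays and 9.80, 9.19, 12.15 and 11.91 on the unpaired arrays. The control A pair differed by -1.78 and epileptogenic A by -0.43, while the B pairs were at 0.18 and 0.00091. The Gfap difference was -0.51 ± 0.26 (limma, unadjusted p 0.0813), and without single arrays or pairs it ran from -0.73 to -0.08. Vim, the other filament gene of reactive astrocytes, measured 6.97, 8.23, 10.12 and 9.57 on the paired arrays and 8.95, 7.97, 10.52 and 10.30 on the unpaired arrays. The Vim difference was -0.71 ± 0.28, and -0.33 without control paired A. Tnc, a matrix protein of reactive glia, differed by -0.53 ± 0.22, with pairs at -0.55, 0.15, -0.59 and -1.11.

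Genes of astrocyte homeostasis gave a smaller difference. Of 26 genes of astrocyte homeostasis 22 were below 0, against 54% of all genes, with a median of -0.14. After median centring 15 of the 26 were below 0, against 36.6% of all genes, and the median was -0.047. Aldh1l1, the folate enzyme used as a pan-astrocyte marker, measured 5.86, 5.54, 5.50 and 5.83 on the paired arrays and 6.28, 6.32, 6.65 and 6.50 on the unpaired arrays. All paired arrays lay below all unpaired arrays, and the 4 pairs were at -0.42, -0.78, -1.15 and -0.67. The difference was -0.76 ± 0.20 (limma, unadjusted p 0.00336, adjusted p 0.999), and leaving out any array or pair moved it only between -0.87 and -0.62. Mlc1, a membrane protein of astrocyte end-feet, differed by -0.34 ± 0.14 in 3 of 4 pairs. Aqp4, the water channel of the same end-feet, measured 10.36, 10.67, 11.39 and 11.45 on the paired arrays and 10.48, 10.79, 11.35 and 11.45 on the unpaired arrays. Its difference was -0.047 ± 0.11 with an interval of -0.30 to 0.20, and only 2 of its 3 tested probe sets were on the same side of 0.

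By number, microglial and macrophage genes held the most members below 0 of the 32 lists, as deposited. The share below 0 was larger for reactive astrocytes (94.4%) and NMDA receptors (100%). Of 34 tested microglial and macrophage genes 29 were below 0 (85.3%), against 54% of all genes. After median centring 25 were below 0, against 36.6% of all genes. As deposited, 7 had an unadjusted p under 0.05 and were lower (2.61% of all genes), and 5 were lower in 4 of 4 pairs (7.09%). After median centring 4 were lower at an unadjusted p under 0.05. The median was -0.28 and the pair medians -0.65, -0.20, -0.20 and -0.32. The mean log2 signal of the list was 5.67, 6.32, 7.87 and 7.96 on the paired arrays and 6.55, 6.47, 8.03 and 8.22 on the unpaired arrays, lowest on control paired A. Without control paired A the median was -0.16. The 5 genes lower in all pairs, picked out after their values were seen, were Cybb, Cd68, Tyrobp, Tmem119 and Ccl3. Cybb, the catalytic subunit of the phagocyte oxidase, measured 4.06, 5.69, 6.89 and 7.52 on the paired arrays and 6.66, 7.03, 6.92 and 8.24 on the unpaired arrays. Its difference was -1.17 ± 0.33, but pairs ran from -2.60 in control A to -0.03 in epileptogenic A. Tyrobp, the signalling adaptor of Trem2, was more even at -0.70, -0.41, -0.39 and -0.56, a difference of -0.51 ± 0.22. Cd68, a lysosomal protein of phagocytes, differed by -1.72 ± 0.66, with control A at -4.99. Lyz2, lysozyme of macrophages, differed by -0.71 ± 0.25, with pairs at -1.83, -0.27, 0.090 and -0.85, and by -0.41 without control paired A. Aif1, the calcium-binding protein Iba1 used to stain microglia, lay close to 0: it measured 4.34, 6.18, 7.54 and 8.15 on the paired arrays and 4.68, 5.55, 7.73 and 8.23 on the unpaired arrays, a difference of 0.0059 ± 0.23.

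Complement and antigen presentation genes had medians of opposite sign in the letters, a difference that was tested for single probe sets only. The list of 23 tested genes had a median of -0.26 (-0.17 after median centring). Of these, 16 were below 0 (14 after median centring), against 54% of all genes (36.6%). In the A arrays by themselves the median was -0.69, and in the B arrays it was 0.15. C1qa, a chain of the complement initiator, was lower in all pairs (-0.033, -0.12, -0.52 and -1.42), with a difference of -0.52 ± 0.20. C5ar1, the receptor for an anaphylatoxin, differed by -0.83 ± 0.31, with pairs at -1.98, 0.051, -0.73 and -0.67, and by -0.44 without control paired A. Cd74, the invariant chain of class II molecules, measured 5.21, 6.69, 7.41 and 8.04 on the paired arrays and 6.43, 5.93, 8.52 and 5.90 on the unpaired arrays. Both A pairs were lower (-1.23 and -1.11) and both B pairs higher (0.76 and 2.15), so that its mean difference of 0.14 ± 0.51 describes no pair. Of 30 tested myelin genes 15 were above 0 and 15 below (20 and 10 after median centring). Of all genes 46% were above 0 (63.4% after median centring). The myelin median was -0.00065, or 0.090 after median centring. Mbp, a main protein of myelin, differed by -0.063 ± 0.17, with pairs at 0.17, -0.28, 0.37 and -0.52. Sox10, the oligodendrocyte lineage factor, differed by -0.77 ± 0.42, carried by control B (-2.50).

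Markers of cells at the border of the tissue were also lower in some of the pairs. Of 16 tested genes of meninges and fibroblasts 13 were below 0 (13 after median centring), against 54% of all genes (36.6%). The meningeal genes had a median of -0.33, and pair medians were 0.084, -0.62, 0.21 and -1.37. Their summed signal was 1659 to 3213 on the paired arrays and 1775 to 4216 on the unpaired arrays. Without the matched pair epileptogenic B the median was -0.10, and without epileptogenic A it was -0.63. Dcn, the small proteoglycan decorin, measured 2.50, 4.50, 5.17 and 4.97 on the paired arrays and 5.64, 4.97, 5.17 and 7.08 on the unpaired arrays, a difference of -1.43 ± 0.47. Its paired mean (4.29) lay under the filter level, so it entered the tests through its unpaired arrays. The 12 choroid plexus and ependyma genes had a median of -0.18 (-0.087 after median centring), with pair medians of -0.38, -0.39, 0.060 and -0.72 and a summed signal of 1212 to 4645 on the paired arrays and 805 to 6255 on the unpaired arrays. Otx2, a choroid plexus transcription factor, differed by -1.08 ± 0.45, and by -0.68 without epileptogenic unpaired B. The lowest signal of a tested member was 5.66 for meninges and 8.52 for choroid plexus, both under the filter level (signal 20.3). Every deposited signal was above 0, so these values cannot show whether RNA of border cells was present on an array. Whether these cells had a part in the glial values was not tested.

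**Figure D3:**
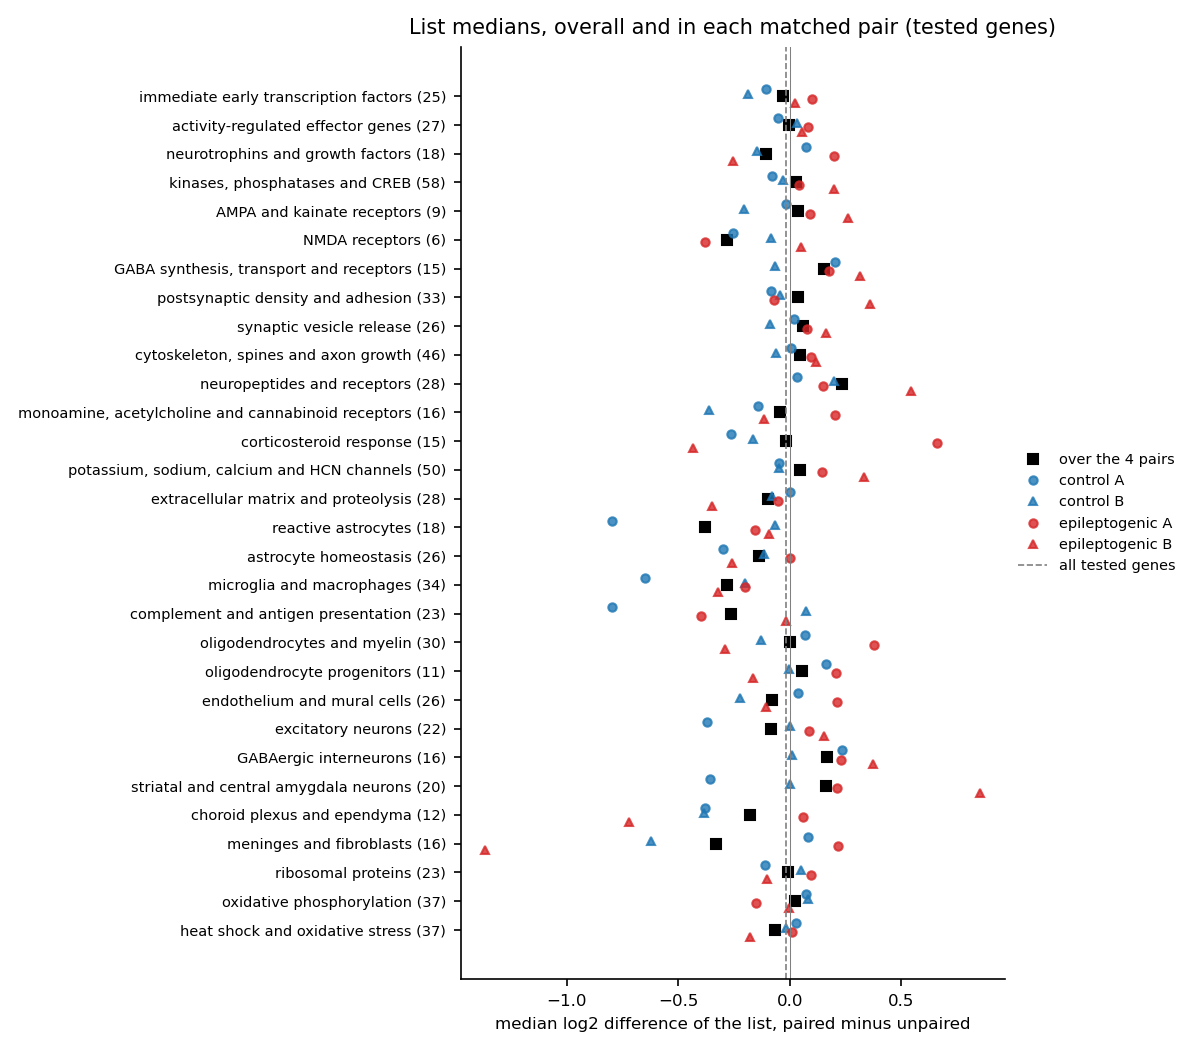
Median log2 difference, paired minus unpaired training, over the tested members of each gene list (rows, number tested in brackets). Black squares are medians of the mean difference, coloured points medians within each matched pair (blue control, red epileptogenic, circles letter A, triangles letter B), and the dashed line is the median of all tested genes; the reactive astrocyte list sits at -0.38 and neuropeptides at 0.24.

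The genes with the smallest p and 4 of 4 pairs in 1 direction were read over the whole array. Because none passed, their values are a description of the extremes of 10364 genes. Supt6h, a histone chaperone of transcription elongation, measured 7.49, 7.42, 7.58 and 7.46 on the paired arrays and 6.69, 7.01, 6.45 and 6.96 on the unpaired arrays. All paired arrays were above all unpaired arrays, and the difference was 0.71 ± 0.17 (limma, unadjusted p 0.00137, adjusted p 0.999). Wbp11, a splicing factor, measured 7.80, 8.07, 8.00 and 7.86 on the paired arrays and 7.32, 7.63, 7.53 and 7.38 on the unpaired arrays, and its pairs were the most alike of these genes at 0.48, 0.44, 0.47 and 0.48. Strada, a pseudokinase that activates Lkb1, was likewise separated, by 0.72 ± 0.22. Rit2, a small GTPase of neurons, was higher by 0.44 ± 0.13, Lnx1, a ubiquitin ligase, by 0.71 ± 0.19, and C7h12orf75 by 0.51 ± 0.16. Among lower genes, LOC102549828 had the smallest p (0.000214) and measured 9.31, 7.63, 8.42 and 8.23 on the paired arrays and 10.11, 9.51, 9.57 and 9.06 on the unpaired arrays. Its probe set and that of Lnx1 carry the suffix of sets that may cross-hybridize, and 1 of 2 Lnx1 probe sets had the opposite sign. Lrfn1, a synaptic adhesion molecule, measured 7.00, 6.87, 5.95 and 5.72 on the paired arrays and 7.48, 7.94, 6.72 and 6.98 on the unpaired arrays. Paired arrays were lower in each pair (-0.48, -1.06, -0.76 and -1.25), with a difference of -0.89 ± 0.18, and the groups overlapped. Odad3 and Rsph10b, both parts of motile cilia, were lower, at -2.03 ± 0.48 and -0.89 ± 0.19 with no overlap. Odad3 measured 2.51, 4.28, 3.52 and 3.98 on the paired arrays and 6.02, 5.47, 6.03 and 4.90 on the unpaired arrays, with all 4 paired arrays under the filter level of 4.35. A2m, a plasma protease inhibitor, and Cavin3, a coat protein of caveolae, were lower, at -0.77 ± 0.18 and -0.70 ± 0.17.

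**Figure D4:**
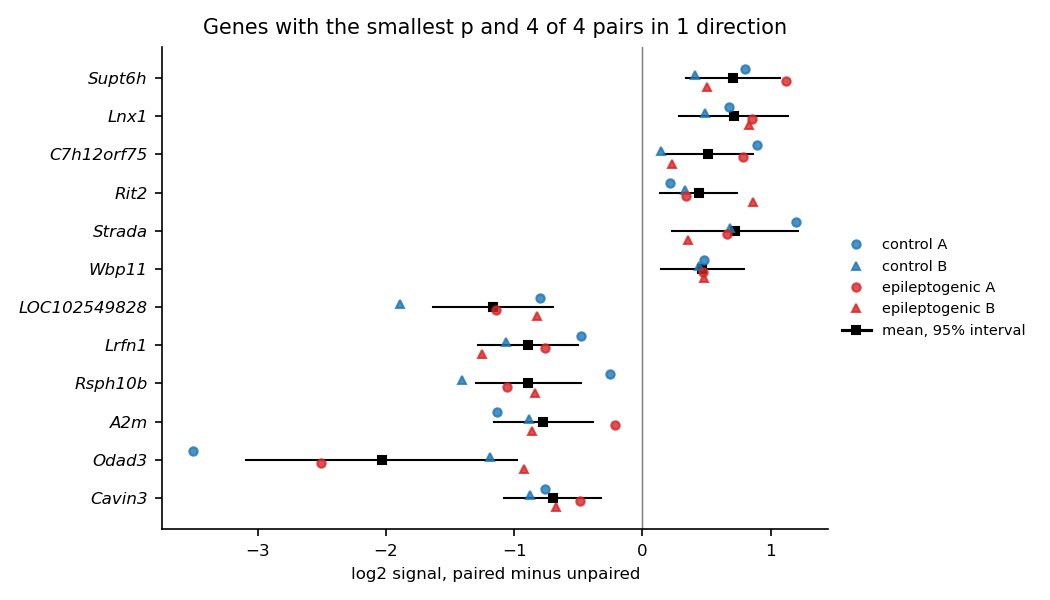
Difference in log2 signal, paired minus unpaired training, for the 6 higher and 6 lower genes with the smallest p among those with 4 of 4 pairs in 1 direction. Coloured points are the matched pairs (blue control, red epileptogenic, circles letter A, triangles letter B) and black squares the means with 95% intervals; no gene passed after adjustment, and the genes were chosen for small p.

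The training difference was also read within each surgery group, from a fit with 4 group means and the letter. In control rats 0 probe sets passed in limma's test (0% called, smallest adjusted p 0.262), and at an unadjusted p under 0.05 there were 225 higher (1.21%) and 694 lower (3.73%). In epileptogenic rats 0 passed (0% called, smallest adjusted p 0.847), with 535 higher (2.87%) and 398 lower (2.14%) unadjusted. The test of the difference in training effect between surgery groups gave 0 as well (smallest adjusted p 0.0978). At an unadjusted p under 0.05 the training effect was higher in epileptogenic rats for 743 probe sets (3.99%) and lower for 313 (1.68%). These splits depend on the scaling of the arrays and were not counted under other scalings. As deposited, the median over probe sets was -0.055 in control rats, 0.011 in epileptogenic rats and 0.070 for the difference between them. With quantile normalization these medians were 0.017, 0.0011 and -0.0095. Of the glial genes named, Cybb had the lowest unadjusted p for the difference in training effect between surgery groups (limma, 0.00651). It was at -1.97 in control and -0.38 in epileptogenic rats (adjusted p 0.868). C1qa ran the other way, at -0.08 in control and -0.97 in epileptogenic rats (adjusted p 0.868). Gabra5 was at 0.12 and 0.88, and Gad1 at 0.05 and 0.63, in the same order.

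Reading the letters apart gave calls in 1 of them. Letter A alone gave 0 calls, and letter B alone gave 150 (0.805%), 43 higher and 107 lower after paired training. Each such fit has 1 residual degree of freedom, and for letter B limma set the spread of every probe set from all probe sets together. Of the 150, 65 (43.3%) had the same sign in letter A, against 48.8% of all tested probe sets, and 25 (16.7%) had it in both A pairs, against 22.7%. The test of the difference between letters gave 0 calls (smallest adjusted p 0.899, 807 at an unadjusted p under 0.05), and training differences correlated at -0.03 between letters across probe sets. Genes lower in letter B, chosen after their values were seen, include Sostdc1, F5 and Enpp2 of choroid plexus. F5 measured 6.81, 7.39, 5.29 and 6.89 on the paired arrays and 5.40, 8.46, 6.78 and 9.23 on the unpaired arrays. Its high arrays were the unpaired B arrays, as for Enpp2 at 9.57, 9.60, 8.95 and 9.50 on the paired arrays and 8.57, 10.84, 9.30 and 11.32 on the unpaired arrays. RT1-Da, a class II antigen gene, measured 6.30, 8.62, 8.76 and 10.22 on the paired arrays and 7.66, 7.32, 10.54 and 8.38 on the unpaired arrays. It differed by 1.56 in letter B and -1.57 in letter A. Of the 92 genes chosen by the naming rule, 13 passed in letter B alone by their brightest probe set. Lower in letter B were LOC102549828 (-1.36), Lrfn1 (-1.16), Rsph10b (-1.12), Cybb (-1.03), A2m (-0.87), C1qa (-0.77), Bgn (-1.15) and Otx2 (-1.84), and these 8 were below 0 in letter A as well. The other 5 had the opposite sign in letter A: Cd74 (1.45 in letter B) and Hbb (1.60) were below 0 there, and Igf2 (-1.56), Sult1a1 (-1.53) and Per1 (-1.04) were above 0. LOC102549828, Lrfn1, Rsph10b and A2m had been named as genes lower in all 4 pairs, so the naming rule set their sign in letter A. Cybb, C1qa, Bgn and Otx2 had been named by smallest p over both letters, which favours a shared sign. The like signs of these 8 genes are therefore no support. Among the tissue markers described, Ttr passed in letter B (-0.80) and was above 0 in letter A (0.69). A dimmer probe set of Dusp6 also passed in letter B (-1.15) and was above 0 in letter A (0.20). The labels do not say what the letters stand for, so a shared batch or other grouping was not tested.

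**Figure D5:**
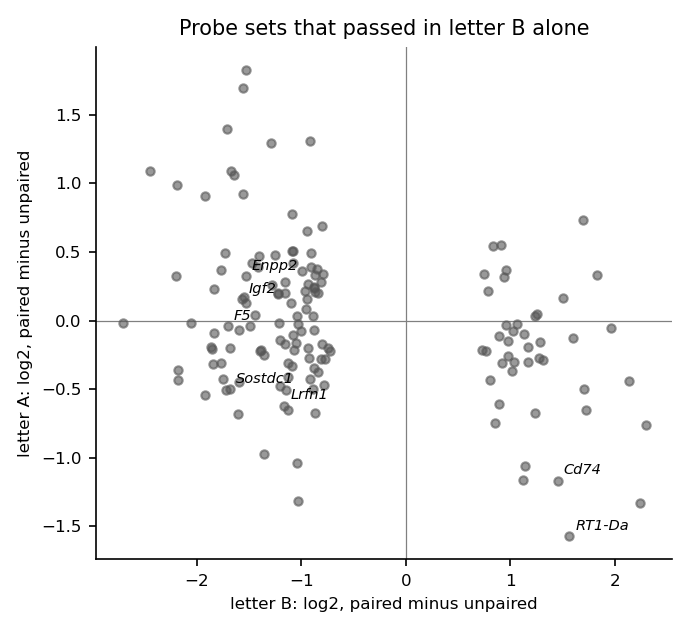
Training difference in log2 signal within letter A (vertical axis) against that within letter B (horizontal axis) for the 150 probe sets that passed in letter B alone. Points are probe sets, some named; 65 of the 150 have the same sign on both axes.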

How the data were processed

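RNA from 8 pools of 2 rats was measured on Affymetrix rat arrays. Per the submitters' processing notes the authors made the deposited signal intensity with MAS5; its version and scaling target are not given in the sources used here. No array was rescaled: the signal was only log2 transformed. Control probe sets (57) were dropped, and the 18625 remaining ones whose mean over the 8 arrays exceeded the 40th percentile (log2 4.35, signal 20.3) entered the tests. Names come from platform annotation with 1 symbol per probe set, updated through Entrez ID, and a gene was read by its brightest probe set.

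Training was tested with limma 3.58.1 in R 4.3.3, with surgery group and letter as covariates and a variance prior that follows intensity. Tests were two-sided and p-values were adjusted by Benjamini-Hochberg over every tested probe set, at 0.05. Like letters deviated together from their group means (correlations of 0.321 to 0.407 in all 6 pairs of groups), so the letter pairs the arrays. The labels call the 2 arrays of a group biological replicates, and the number of arrays limits the precision.

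Genes were named by a rule: up to 6 per direction by smallest p with 4 of 4 pairs on 1 side, since none passed; 2 per list by smallest p; and 20 always given. The comparison, its genes and the 32 lists were chosen with earlier results of these data known. Of 1087 list entries (1034 genes) 951 had a probe set and 756 were tested. Among the alternatives were other scalings (quantile, median), an offset of 16 before log2, no filter or the 60th percentile, models without letter, surgery or prior trend, array weights, probe set means per gene, 1 letter at a time, and arrays or matched pairs left out. The fit was tested on simulated data. Figures used matplotlib 3.10.9 in Python 3.11.15.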

Additional observations from a re-analysis of the deposited data

Results flagged for a closer look

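In 64 groups of 4 arrays (32 genes, paired and unpaired), 1 value stood apart from its group by Dixon's test at 95%, which chance does in about 1 of 20 groups. Nr4a1 on epileptogenic unpaired B had a log2 signal of 5.35, while the other unpaired arrays lay between 6.24 and 6.39. On the matched paired array, epileptogenic paired B, Nr4a1 was lower still, at 5.10.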

How the results depend on the processing

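The count of 0 for training over all rats held under every alternative but letter B alone (150), with 427 to 1254 probe sets at an unadjusted p under 0.05 in the alternatives that kept both covariates (275 with no surgery covariate). With no replicate block there were 0 calls and 250 at an unadjusted p under 0.05, against 698 with the letter as the pairing, and the block changed no other call. Training in control rats gave 0 to 3 calls and in epileptogenic rats 0 to 1 with single arrays left out (3 without control paired B, 1 without epileptogenic unpaired B). For the difference in training effect between surgery groups the count rose above 0 in 2 of the alternatives, with 1 call at an offset of 16. Probe sets with 4 of 4 pairs numbered 1785 higher and 678 lower under median centring, 1476 and 2314 with no filter, and 812 lower with a stricter filter, which changes the number tested.

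Under median centring the list medians were 0.089 for effector genes, 0.14 for cytoskeleton genes, 0.12 for kinases, 0.13 for AMPA and kainate receptors, 0.14 for channels, 0.24 for GABA genes and -0.047 for astrocyte homeostasis. In letter A alone complement was at -0.69, and in letter B alone complement was at 0.15, NMDA receptors at -0.081, oligodendrocyte progenitors at -0.13 and choroid plexus at -0.57. With arrays or pairs left out, effector genes ran from -0.12 to 0.057. Of the 92 named genes with an estimate 68 kept 1 sign. Turned signs were Grin2b 9.5e-05 under quantile normalization; Egr1 0.035, Creb1 0.012, Grin2b 0.043, Aqp4 0.043 and Mbp 0.027 under median centring; Fos 0.014 and Nr4a1 -0.0036 under array weights; Hbb -0.13, Sult1a1 0.13, Per1 0.031, Igf2 0.15, Gria1 -0.076, Npy -0.42, Aif1 -0.26, Cd74 -1.17 and Mbp 0.27 in letter A alone; and Grm3 -0.15, Grin2a 0.061, Fos 0.31, Egr1 0.062, Arc 0.091, Nr4a1 -0.30, Grp 0.30, Stmn1 -0.14, Slc17a7 -0.42 and Gfap 0.088 in letter B alone. With arrays or pairs left out, genes of both signs were Aif1 (-0.25 to 0.19), Arc (-0.59 to 0.014), Bdnf (-0.0048 to 0.43), Cd74 (-0.54 to 0.67), Egr1 (-0.17 to 0.078), Fos (-0.33 to 0.23), Gria3 (-0.017 to 0.30), Grin2b (-0.14 to 0.060), Grm3 (-0.071 to 0.17), Mbp (-0.23 to 0.11), Npy (-0.23 to 0.24), Nr4a1 (-0.40 to 0.30), Slc17a7 (-0.27 to 0.51) and Stmn1 (-0.075 to 0.14). The cause was not tested for any of these. Detection calls were not used here, so dim probe sets near the filter level are the least reliable.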
